A study of Homo sapiens with 12 samples.

Results

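The genes for J-domain proteins that carry a DNAJA, DNAJB or DNAJC name were followed through polyA RNA sequencing of a human cell line. Every gene name made of DNAJ, the letter A, B or C and a number was taken, which gave 43 of the 60645 gene names counted, with 4 in DNAJA, 13 in DNAJB and 26 in DNAJC. The cells were HEK-293T, an embryonic kidney line, with ARID1A knocked out (a line the submitters named 12KO), and all 6 groups carried that knockout. ARID1A is a subunit of the SWI/SNF chromatin remodelling complex. The knockout cells received an empty vector (no ARID1A), wild-type ARID1A (WT) or ARID1A without its IDR1b segment (ΔIDR1b), a piece of a disordered region of the protein. In each of these 3 ARID1A states they also received either a second empty vector (vector alone) or EWS-FLI1, the fusion transcription factor of Ewing sarcoma, from 2 µg of plasmid with 48 h of growth afterwards. The study asked what IDR1b does in gene regulation by EWS-FLI1. Each group had 2 libraries, labelled as repeats with no word on separate cultures, so the p-values below measure only the spread between these libraries. As a model, all groups rest on a single knockout line with introduced genes.

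J-domain proteins are co-chaperones of HSP70. Their J domain docks on HSP70 and speeds its ATP hydrolysis, which locks HSP70 onto the unfolded protein that the co-chaperone brings. DNAJA proteins have the layout of the bacterial DnaJ, with a glycine- and phenylalanine-rich stretch and a zinc-binding region; DNAJB proteins lack the zinc-binding region; DNAJC proteins share only the J domain and serve single tasks in the endoplasmic reticulum (ER), mitochondria, vesicles, the ribosome or the nucleus. Some members, with DNAJB1 the best known, are heat-shock genes driven by heat-shock factor 1 (HSF1), and others, such as DNAJB9, belong to the response to unfolded protein in the ER.

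The promoters of 4 members are printed because the results below turn on DNAJB1 and DNAJB9 and because DNAJA1 and DNAJB6 carry the longest heat-shock element found among the members. RefSeq (GRCh38.p14) gave promoters for 39 of the 43 members, 51 windows in all, each with 250 bases before and 50 after a gene start. Each is written 5′ to 3′ on the gene's own strand. Capitals mark the heat-shock element GAANNTTC or TTCNNGAA in the first 3 and CCAAT in DNAJB9, all searched on both strands.
DNAJB1, chr19:14518348-14518647, minus strand: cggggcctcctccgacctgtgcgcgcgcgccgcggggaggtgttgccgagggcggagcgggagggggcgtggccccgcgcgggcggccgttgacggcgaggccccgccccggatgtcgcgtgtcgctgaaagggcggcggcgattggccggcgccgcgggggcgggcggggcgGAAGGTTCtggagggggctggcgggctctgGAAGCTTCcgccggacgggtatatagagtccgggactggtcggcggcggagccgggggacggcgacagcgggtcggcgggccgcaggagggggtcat
DNAJA1, chr9:33025023-33025322, plus strand: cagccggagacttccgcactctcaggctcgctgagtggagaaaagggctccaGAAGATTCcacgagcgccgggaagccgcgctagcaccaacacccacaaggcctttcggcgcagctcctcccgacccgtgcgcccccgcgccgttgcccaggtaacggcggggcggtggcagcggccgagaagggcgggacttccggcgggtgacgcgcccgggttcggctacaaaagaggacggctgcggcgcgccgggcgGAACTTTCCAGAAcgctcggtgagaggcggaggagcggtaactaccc
DNAJB6, chr7:157336754-157337053, plus strand: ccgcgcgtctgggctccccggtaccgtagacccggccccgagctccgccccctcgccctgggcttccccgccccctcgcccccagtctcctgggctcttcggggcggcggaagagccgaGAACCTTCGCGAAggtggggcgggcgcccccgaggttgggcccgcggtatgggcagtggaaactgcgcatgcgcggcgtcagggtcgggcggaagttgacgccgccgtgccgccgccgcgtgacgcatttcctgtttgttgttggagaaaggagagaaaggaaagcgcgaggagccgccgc
DNAJB9, chr7:108569624-108569923, plus strand: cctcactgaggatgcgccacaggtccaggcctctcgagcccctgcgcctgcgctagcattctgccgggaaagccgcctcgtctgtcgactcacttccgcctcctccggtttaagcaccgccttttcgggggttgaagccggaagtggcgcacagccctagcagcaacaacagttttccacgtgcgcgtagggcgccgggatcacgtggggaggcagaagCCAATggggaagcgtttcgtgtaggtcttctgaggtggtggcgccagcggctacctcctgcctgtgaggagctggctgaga

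DNAJB1 has more than 1 annotated start, and in the window printed these elements begin 77 and 47 bases before its start. In the window at chr19:14517888-14518187 an element begins 1 base after the start. The window at chr19:14529222-14529521 holds CCAAT but no heat-shock element. In DNAJA1 the second run of capitals holds a pair of overlapping matches, beginning 3 and 8 bases after the start. The pair makes up a longer form of 3 alternating units (GAA, NN, TTC, NN, GAA), which DNAJB6 has as well, there beginning 131 bases before the start. The short element was in 9 of the 51 member windows (17.6%) and in 13.5% of all 35116 windows. Its windows belonged to DNAJA1, DNAJA4, DNAJB1, DNAJB4, DNAJB6, DNAJB7, DNAJC6 and DNAJC15. The longer form, starting with either GAA or TTC and read on both strands, was in 2 member windows (3.92%) and in 0.49% of all windows. CCAAT was in 21 member windows (41.2%, against 34.6%), and in DNAJB9 it begins 31 bases before the start. The ER stress element, CCAAT and CCACG with 9 bases between them, matched in 0 of the 51 (0.0769% of all), which says only that these letters are not in these windows. The repeat GGAAGGAA, a form of the sequence that EWS-FLI1 is known to bind, was in 4 member windows (7.84%, against 3.67%), belonging to DNAJC6, DNAJC14 and DNAJC21. A match is a description of letters, not a binding site.

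Library totals ran from 11702251 to 14445379 counts, and the members took 0.186 to 0.218% of them. ARID1A stood at 147 to 165 CPM (counts scaled to a common library size, here with factors from the trimmed mean of M-values, TMM) in the 4 libraries with no ARID1A, at 1843 to 2291 in WT and at 2608 to 2878 in ΔIDR1b. FLI1 was at 0 to 0.146 CPM with vector alone. With EWS-FLI1 it reached 1688 to 1830 CPM with no ARID1A, 3462 to 3675 in WT and 1888 to 1906 in ΔIDR1b. EWSR1 ran from 386 to 559 CPM with vector alone and from 1976 to 3728 with EWS-FLI1. Of 5 genes listed as typical of HEK-293T, NEFL, PAX2 and LIN28B were present in every library, NEFH stayed under 1 CPM and NEFM at or near 0. Of 15 markers of other cell types, TYR was at 0 and PTPRC and CD3E at or near 0 throughout, while COL1A1 reached 73.01 to 105.0 CPM. The summed level of these 15 was 96.3 to 106.3 CPM with no ARID1A, 104.3 to 130.1 in WT and 129.8 to 144.4 in ΔIDR1b. The unequal levels of ARID1A, FLI1 and these markers between the states move with the comparisons below, and their part in them was not tested.

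A filter on low counts kept 39 of the 43 members (3 DNAJA, 11 DNAJB and 25 DNAJC). DNAJA4, DNAJB3, DNAJB8 and DNAJC15 did not pass it, and DNAJB3 had no count in any library. Per kilobase of exon, DNAJC8, which sits in spliceosomal complexes, was highest with a mean level of 56.0 CPM per kb over the 12 libraries. DNAJA1, DNAJA3 and DNAJA2 followed in their class at 46.7, 22.9 and 18.6 CPM per kb. DNAJA1 and DNAJA2 are the general cytosolic partners of HSC70 and DNAJA3 is the mitochondrial one. The leading DNAJB genes were DNAJB1 at 22.1, DNAJB9 at 12.3 and DNAJB2 at 9.72 CPM per kb. DNAJC5, the cysteine-string protein of synaptic and secretory vesicles, and DNAJC1, an ER-membrane protein that contacts ribosomes, came after DNAJC8 in their class at 21.3 and 16.1 CPM per kb. These lengths join the exons of all annotated transcripts, so a gene with many long isoforms reads low on this scale.

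How far a member's level ranged over the 12 libraries differed widely. DNAJA3 moved least, with its highest library 1.12 times its lowest, and DNAJC8 ranged 1.25-fold. DNAJB1 ranged 6.72-fold, DNAJB5 3.75-fold and DNAJB9 3.67-fold. DNAJC28 ranged 5.01-fold at a mean of only 1.23 CPM, where single counts weigh heavily. Summed over a class, DNAJA genes lay between 350.3 and 415.1 CPM in every library and DNAJC genes between 1111 and 1224. The DNAJB sum lay at 673.9 and 702.3 CPM in WT with vector alone and at 408.5 and 410.2 in WT with EWS-FLI1. Without DNAJB1 the same sums were 360.6 to 382.0 and 335.1 to 341.1 CPM.

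**Figure D1:**
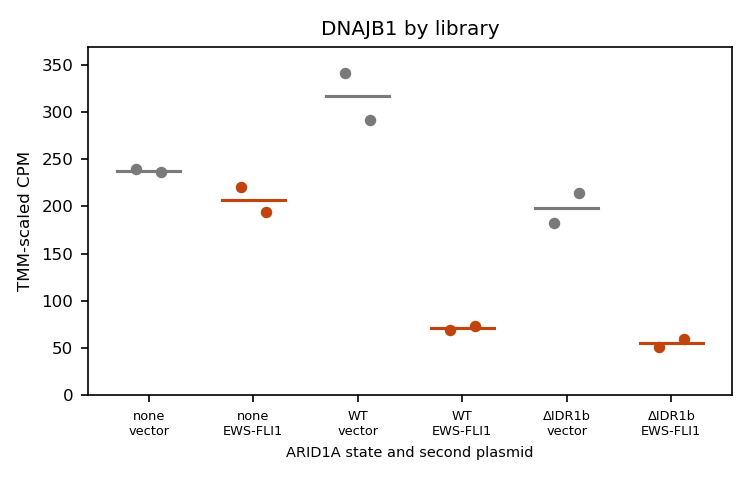
DNAJB1 level in TMM-scaled CPM (vertical axis, from 0) for the 2 libraries of each group (points) with their mean (line), grey for the empty vector and orange for EWS-FLI1, with "none" for no ARID1A. With EWS-FLI1 the WT and ΔIDR1b libraries sit between 50.8 and 73.5 CPM, and those with no ARID1A at 194 and 220.1 CPM.

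The first comparison asked what EWS-FLI1 did to the members in each ARID1A state. DNAJB1, the heat-inducible cytosolic HSP40 that works with HSC70 and HSP70, fell with EWS-FLI1 in the cells given WT and in those given ΔIDR1b ARID1A. With WT ARID1A its 2 libraries read 342 and 292 CPM with vector alone and 69.1 and 73.5 with EWS-FLI1. In ΔIDR1b they read 182 and 214 CPM and then 50.8 and 59.6. With no ARID1A they read 239.6 and 236 CPM with vector alone and 220.1 and 194 with EWS-FLI1. The 2 vectors were far apart in WT and ΔIDR1b, and close, although without overlap, with no ARID1A. In bulk RNA, fewer cells with a transcript and less of it per cell cannot be told apart.

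By edgeR's quasi-likelihood test with Benjamini-Hochberg adjustment over 20377 genes, DNAJB1 gave a log2 fold change of -2.15 with SE 0.11, adjusted p = 1.19e-15 in WT. In ΔIDR1b it gave a log2 fold change of -1.84 with SE 0.11, adjusted p = 1.09e-13. With no ARID1A the estimate was -0.20 (SE 0.11, adjusted p = 1.00), with an unadjusted p of 0.0718. Over every alternative run, the log2 fold change stayed between -2.26 and -2.03 in WT and between -1.96 and -1.72 in ΔIDR1b, and DNAJB1 was called each time.

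No other member was called. In WT, 1 of 39 tested members passed, against 0.221% of all genes tested; in ΔIDR1b it was 1 of 39, against 0.172%; with no ARID1A it was 0 of 39 by edgeR, against 0.0442%, and 0 by DESeq2. At an unadjusted p under 0.05 edgeR listed 5 members in WT (DNAJB1 with DNAJB2, DNAJB4, DNAJC1 and DNAJC16), 5 in ΔIDR1b (DNAJB1 with DNAJB5, DNAJC12, DNAJC18 and DNAJC19) and 1 with no ARID1A (DNAJC16). Over all 20377 genes, 1331 had such a p in WT, 1110 in ΔIDR1b and 643 with no ARID1A. These lists of members were read after the values were seen. DNAJB2, a neuron-enriched member that binds ubiquitin, read 61.2 and 74.6 CPM in WT with vector alone and 42.5 and 60.3 with EWS-FLI1. Its estimate was -0.40 (SE 0.14, adjusted p = 0.531), and it became the second member called in WT when the second WT library with EWS-FLI1 was left out. A fit of all libraries with a replicate block within each vector called DNAJB2 in WT as well. The median log2 fold change of the 39 members was 0.02 with no ARID1A, -0.06 in WT and 0.02 in ΔIDR1b.

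The other tested members whose promoter windows hold the heat-shock element (DNAJA1, DNAJB4, DNAJB6, DNAJB7 and DNAJC6) did not pass the test. DNAJA1 gave log2 fold changes with EWS-FLI1 of -0.08 with no ARID1A, -0.18 in WT and -0.10 in ΔIDR1b, each with an SE of 0.10 or 0.11. For DNAJB6, which keeps polyglutamine proteins from aggregating, they were -0.16, -0.14 and 0.11. DNAJB4, a close relative of DNAJB1, had 0.08, -0.46 and -0.03, of which the WT value had an adjusted p of 0.46. In these 3 genes the estimates stayed within 0.46 of 0, while that of DNAJB1 reached -2.15. DNAJC6 gave -0.20, 0.02 and 0.06. DNAJB7, at under 1 CPM in every library, gave 0.86, 0.58 and 0.20 with SEs from 1.01 to 1.14, too wide to read a direction.

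**Figure D2:**
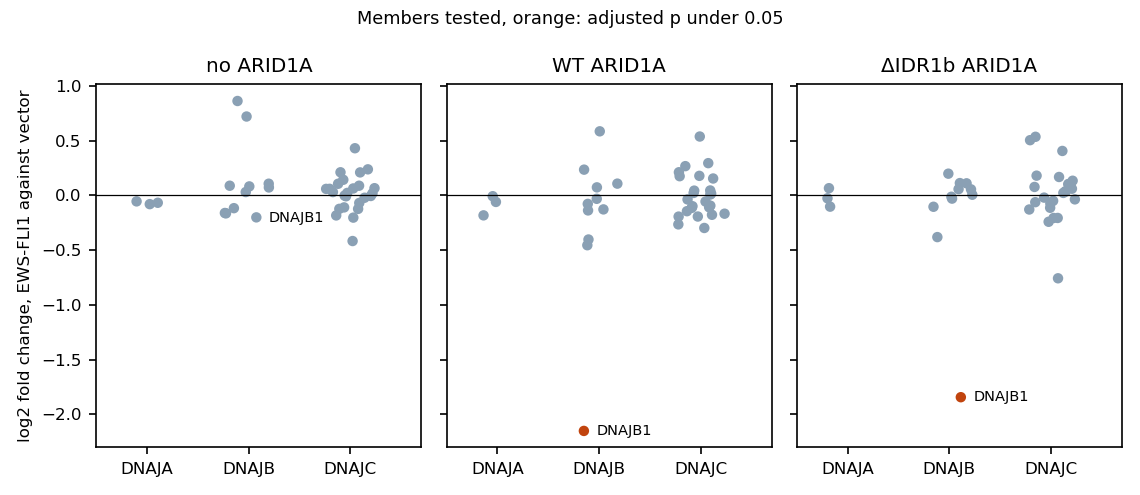
Log2 fold change of EWS-FLI1 against the empty vector (vertical axis) for the 39 tested members by class (horizontal axis) in each ARID1A state, 1 point a gene, orange where the adjusted p is under 0.05. DNAJB1 stands alone at -2.15 in WT and -1.84 in ΔIDR1b, and lies among the other members at -0.20 with no ARID1A.

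State differences in the response to EWS-FLI1 were tested as interactions. For DNAJB1 the effect in WT minus that with no ARID1A was -1.95 (SE 0.16, adjusted p = 7.69e-10), and DNAJB1 was 1 of 39 members called, against 0.0245% of all genes. The effect in ΔIDR1b minus that with no ARID1A was -1.64 (SE 0.16, adjusted p = 8.55e-08), again with 1 of 39 members called, against 0.0196%. Over all genes, 3 were called lower in each of these interactions. Of the 11 tested genes in a list of HSP70 proteins, 2 were called lower in each, so the difference was not particular to DNAJB1. Both differences share the libraries with no ARID1A. Between ΔIDR1b and WT the DNAJB1 difference was 0.31 (SE 0.16, adjusted p = 1.00), which does not show that the effects were alike; over the alternatives it ran from 0.19 to 0.43. There 0 of 39 members and 0% of genes were called by edgeR, and DESeq2 called 0 members. An unadjusted p under 0.05 was found in 3 members and in 741 of all 20377 genes.

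The partners of the J-domain proteins moved as follows with EWS-FLI1. Of 11 tested genes in a list of HSP70 proteins, 1 fell with no ARID1A, 4 in WT and 4 in ΔIDR1b, and none rose, by edgeR at an adjusted p under 0.05. HSPA1B, a heat-inducible HSP70, read 869 and 732 CPM in WT with vector alone and 192 and 191 with EWS-FLI1 (log2 fold change of -2.06 with SE 0.17, adjusted p = 1.44e-10). HSPA6, the strictly inducible HSP70, fell in all 3 states from at most 26.2 CPM, with log2 fold changes of -1.50 (SE 0.23, adjusted p = 0.00109) with no ARID1A, -5.65 (SE 0.31, adjusted p = 3.76e-15) in WT and -5.50 (SE 0.30, adjusted p = 2.86e-15) in ΔIDR1b. HSPA8, which encodes the constitutive HSC70, fell with log2 fold changes of -0.54 (SE 0.12, adjusted p = 0.0481) in WT and -0.60 (SE 0.12, adjusted p = 0.0171) in ΔIDR1b. HSPA1A was the other one called in both; it is a near-identical copy of HSPA1B, and fragments that fit both were not counted, so the values of this pair are uncertain.

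Among 13 nucleotide exchange factors, which release ADP from HSP70, HSPH1 fell with log2 fold changes of -0.90 (SE 0.11, adjusted p = 5.72e-06) in WT and -0.63 (SE 0.11, adjusted p = 0.00351) in ΔIDR1b, and none was called with no ARID1A. Of 11 other genes of the heat-shock program, 3 fell in WT (HSPB1, CHORDC1 and HSP90AA1, with log2 fold changes of -0.52, -0.64 and -0.47) and HSPB1 alone in ΔIDR1b (-0.48). None of 9 genes of the unfolded protein response and none of 5 J-domain genes with other names was called in any state. These lists were drawn up with earlier results of the same libraries known, so their direction is not independent evidence.

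The second set of comparisons set the ARID1A states against each other, once with vector alone and once with EWS-FLI1. Both contrasts with no ARID1A share those libraries, and both contrasts with WT share the WT libraries. Of the 39 tested members, 25 were called in at least 1 of the 6 comparisons and 14 (35.9%) in none, against 45.7% in none among all genes tested. DNAJB9 was the 1 member called in all 6.

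**Figure D3:**
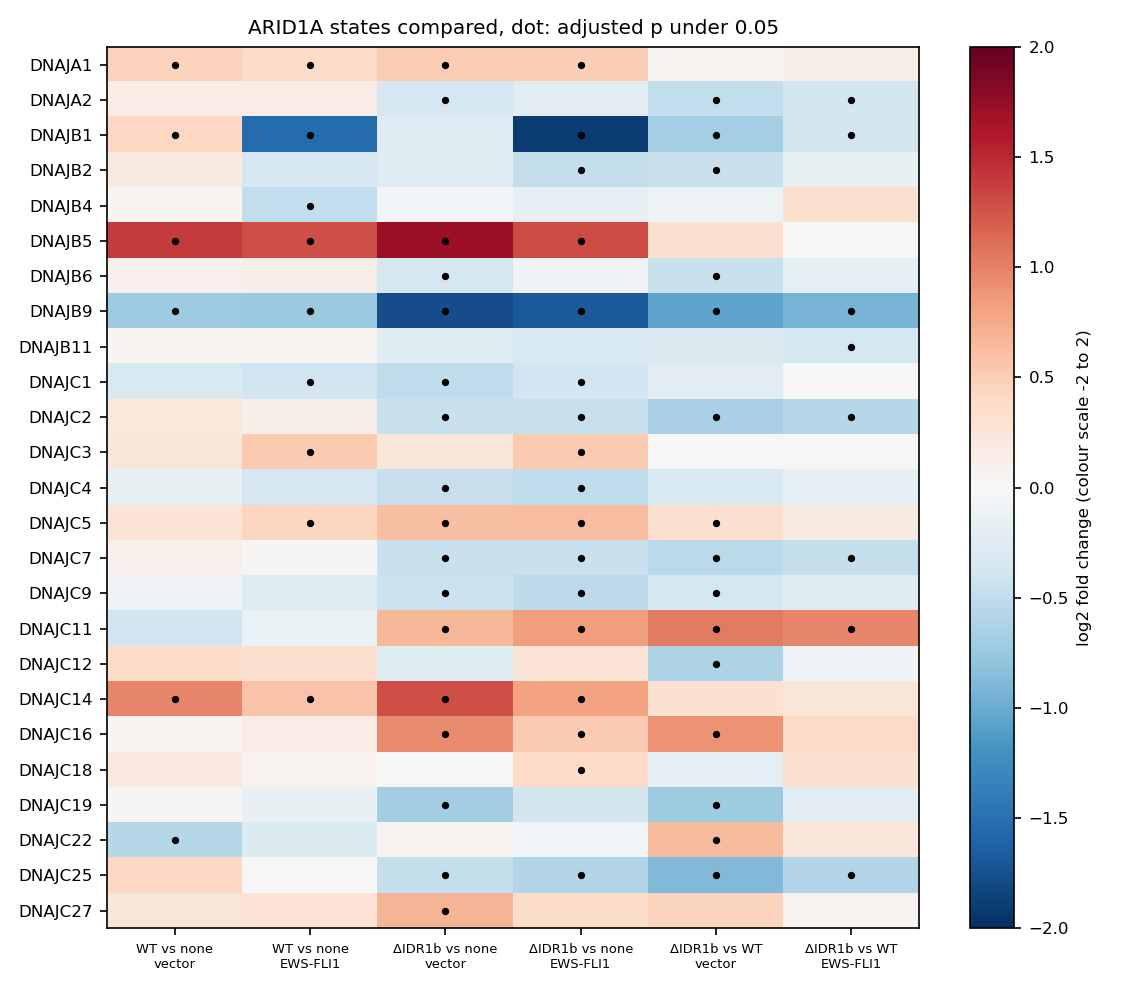
Log2 fold change (colour, from -2 to 2) of the 25 members called in at least 1 comparison of ARID1A states (rows), for the 6 comparisons (columns; "none" is no ARID1A), with a dot where the adjusted p is under 0.05. DNAJB9 is lower in all 6 columns, DNAJB5 is higher in the 4 that include no ARID1A, and DNAJB1 changes sign between the first 2.

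WT against no ARID1A with vector alone asked what restoring ARID1A did. DNAJB5, a relative of DNAJB1 and DNAJB4, rose from 8.55 and 7.93 CPM with no ARID1A to 20.2 and 23.4 in WT (log2 fold change of 1.40 with SE 0.18, adjusted p = 1.32e-06). DNAJB9, an ER-luminal co-chaperone of BiP, fell from 51.4 and 50.8 CPM to 30.1 and 31.5 (log2 fold change of -0.73 with SE 0.14, adjusted p = 7.86e-04). Called members were picked for naming only where the libraries of the 2 states did not overlap, so a gap between them is no support. DNAJC14, tied to the transport of dopamine receptors from the ER, rose from 9.07 and 9.27 to 16.5 and 19.6 CPM (log2 fold change of 0.98 with SE 0.19, adjusted p = 7.10e-04). Other annotated genes overlap 58.1% of its exon bases, and counting did not use strand. Fragments that overlapped more than 1 gene were not counted, so its level rests on only part of its exons. DNAJA1 rose from 99.1 and 106 to 141 and 141 CPM (log2 fold change of 0.46 with SE 0.10, adjusted p = 0.00288).

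DNAJB1 rose here as well, from 239.6 and 236 to 342 and 292 CPM (log2 fold change of 0.41 with SE 0.11, adjusted p = 0.01). DNAJC22 fell from 18.6 and 17.4 to 13.1 and 10.98 CPM (log2 fold change of -0.58 with SE 0.18, adjusted p = 0.037). In all, 6 members passed, 4 higher and 2 lower (15.4% of 39, against 11.7% of all genes), and 4 higher and 3 lower with upper-quartile scaling. The count was 3 without the first library of no ARID1A, and 10 without either WT library with EWS-FLI1. The DNAJB1 call was lost without either library of no ARID1A (adjusted p = 0.0746 and 0.107) and without the first WT library (0.214). That of DNAJA1 was lost without the first library of no ARID1A (0.0673), and that of DNAJC22 without any 1 of its 4 libraries, by DESeq2 (0.0539) and with no low-count filter (0.0533).

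With EWS-FLI1 present, DNAJB1 stood the other way round between the same states. It read 220.1 and 194 CPM with no ARID1A and 69.1 and 73.5 in WT (log2 fold change of -1.54 with SE 0.11, adjusted p = 5.97e-12). DNAJB1 was 1 of 3 genes of 20377 called in opposite directions between WT and no ARID1A with the 2 vectors. DNAJB9 and DNAJB5 kept their direction. DNAJB9 read 46.2 and 48.05 CPM with no ARID1A and 32.9 and 23.5 in WT (log2 fold change of -0.74 with SE 0.15, adjusted p = 4.30e-04), and DNAJB5 7.93 and 8.9 and then 20.7 and 20.5 (log2 fold change of 1.29 with SE 0.18, adjusted p = 3.40e-06). DNAJC3, the ER-luminal protein P58IPK, rose from 52.6 and 54.3 to 80.6 and 73.4 CPM (log2 fold change of 0.53 with SE 0.11, adjusted p = 0.00113).

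In total 9 members passed with EWS-FLI1, 5 higher and 4 lower (23.1%, against 18.1% of all genes). The remaining 5 were DNAJA1, DNAJC5 and DNAJC14, which were higher in WT (log2 fold changes 0.36, 0.43 and 0.56), and DNAJB4 and DNAJC1, which were lower (-0.50 and -0.39). Each of these 5 calls was lost without either library of no ARID1A with EWS-FLI1, with adjusted p from 0.0511 to 0.166, and the count then fell to 4, as it did in a fit of the 4 libraries compared alone. Leaving out the first WT library lost DNAJA1 (0.0553), and leaving out the second lost DNAJB4, DNAJC1, DNAJC5 and DNAJC14 (0.101 to 0.371). DNAJC14 was also lost by DESeq2 (0.0697) and with upper-quartile factors (0.0661), and DNAJC1 with no low-count filter (0.0811). The 2 WT libraries with EWS-FLI1 differed most of any pair, with a chi-square per degree of freedom over genes of 12.1 against 3.02 to 6.13 in the other groups.

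ΔIDR1b against no ARID1A moved the most members, 17 of 39 with vector alone, 7 higher and 10 lower (43.6%, against 33.3% of all genes), and 17 with EWS-FLI1, 8 higher and 9 lower (43.6%, against 35.9%). DNAJB9 fell furthest with vector alone, from 51.4 and 50.8 CPM to 15.8 and 14.01 (log2 fold change of -1.78 with SE 0.15, adjusted p = 5.44e-11). With EWS-FLI1 it read 46.2 and 48.05 CPM with no ARID1A and 14.6 and 14.9 in ΔIDR1b (log2 fold change of -1.67 with SE 0.15, adjusted p = 2.05e-10). The ΔIDR1b libraries were thus the lowest of all 12 for DNAJB9, below every WT library. EWS-FLI1 itself gave DNAJB9 log2 fold changes of -0.12, -0.13 and -0.01 in the 3 states, with adjusted p from 0.928 to 1.

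DNAJB5 rose in ΔIDR1b to 29.8 and 24.4 CPM with vector alone (log2 fold change of 1.72 with SE 0.18, adjusted p = 2.58e-09) and to 20.95 and 20.6 with EWS-FLI1 (log2 fold change of 1.30 with SE 0.18, adjusted p = 6.49e-07). DNAJC11, a mitochondrial protein tied to the complexes that shape cristae, went from 24.01 and 27.1 CPM to 43.2 and 38.1 with vector alone (log2 fold change of 0.67 with SE 0.16, adjusted p = 0.00106). With EWS-FLI1 it went from 24.04 and 24.7 to 43.2 and 44.1 CPM (log2 fold change of 0.84 with SE 0.16, adjusted p = 7.12e-05). In all 3 genes the calls with both vectors held in every alternative run. DNAJC14 rose by 1.29 and 0.81 on the log2 scale with the 2 vectors, read from only part of its exons as given above.

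DNAJC5 rose from 93.7 and 82.04 to 139 and 127 CPM with vector alone (log2 fold change of 0.60 with SE 0.12, adjusted p = 1.25e-04), and by 0.61 (SE 0.12, adjusted p = 8.92e-05) on the log2 scale with EWS-FLI1. DNAJC16, a transmembrane member, rose from 8.33 and 9.95 to 15.4 and 19.7 CPM (log2 fold change of 0.94 with SE 0.19, adjusted p = 2.22e-04). DNAJC27, which joins a small GTPase to a J domain, rose by 0.68 (SE 0.22, adjusted p = 0.0165) on the log2 scale with vector alone, a call that was lost without the first library of no ARID1A (0.168), without either ΔIDR1b library (0.071 and 0.0708) and by DESeq2 (0.0527). Among the EWS-FLI1 libraries DNAJC3 was higher in ΔIDR1b, by 0.53 (SE 0.11, adjusted p = 3.85e-04) on the log2 scale.

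Among the lower members, DNAJC19, part of the motor that pulls proteins into mitochondria, fell from 25.1 and 22.4 to 16.4 and 12.9 CPM with vector alone (log2 fold change of -0.69 with SE 0.16, adjusted p = 0.00114), a call lost without the second ΔIDR1b library (0.0543). With EWS-FLI1 its estimate was -0.37 (SE 0.16, adjusted p = 0.0673). DNAJC1 fell with a log2 fold change of -0.51 (SE 0.13, adjusted p = 0.00196) with vector alone. DNAJC25, a membrane-bound member, fell with log2 fold changes of -0.47 (SE 0.17, adjusted p = 0.0334) with vector alone and -0.58 (SE 0.17, adjusted p = 0.00775) with EWS-FLI1. DNAJC4 fell likewise, with -0.46 (SE 0.16, adjusted p = 0.0239) and -0.51 (SE 0.16, adjusted p = 0.0109). Single libraries decided these 4 calls of DNAJC25 and DNAJC4. DNAJC25 was lost without the first library of no ARID1A or the second of ΔIDR1b with each vector (0.0666 to 0.27) and by DESeq2 with vector alone (0.0572), and DNAJC4 without any 1 of its 4 libraries with vector alone (0.0551 to 0.174) and without 3 of the 4 with EWS-FLI1, all but the second of no ARID1A (0.0509 to 0.11).

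DNAJC9, a co-chaperone that is also a histone H3-H4 chaperone, was lower in ΔIDR1b among the EWS-FLI1 libraries, at 41.5 and 40.9 CPM against 62.4 and 56.4 with no ARID1A (log2 fold change of -0.53 with SE 0.13, adjusted p = 0.00167). FAM149B1 on the other strand overlaps 56.5% of its exon bases, and fragments that overlapped both genes were not counted. With EWS-FLI1 DNAJB1 was far lower in ΔIDR1b than with no ARID1A (log2 fold change of -1.91 with SE 0.11, adjusted p = 9.40e-15). With vector alone DNAJB1 gave -0.26 (SE 0.11, adjusted p = 0.0596) and was not called. The empty-vector count of 17 fell to 11 without the first library of no ARID1A or without the second of ΔIDR1b.

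**Figure D4:**
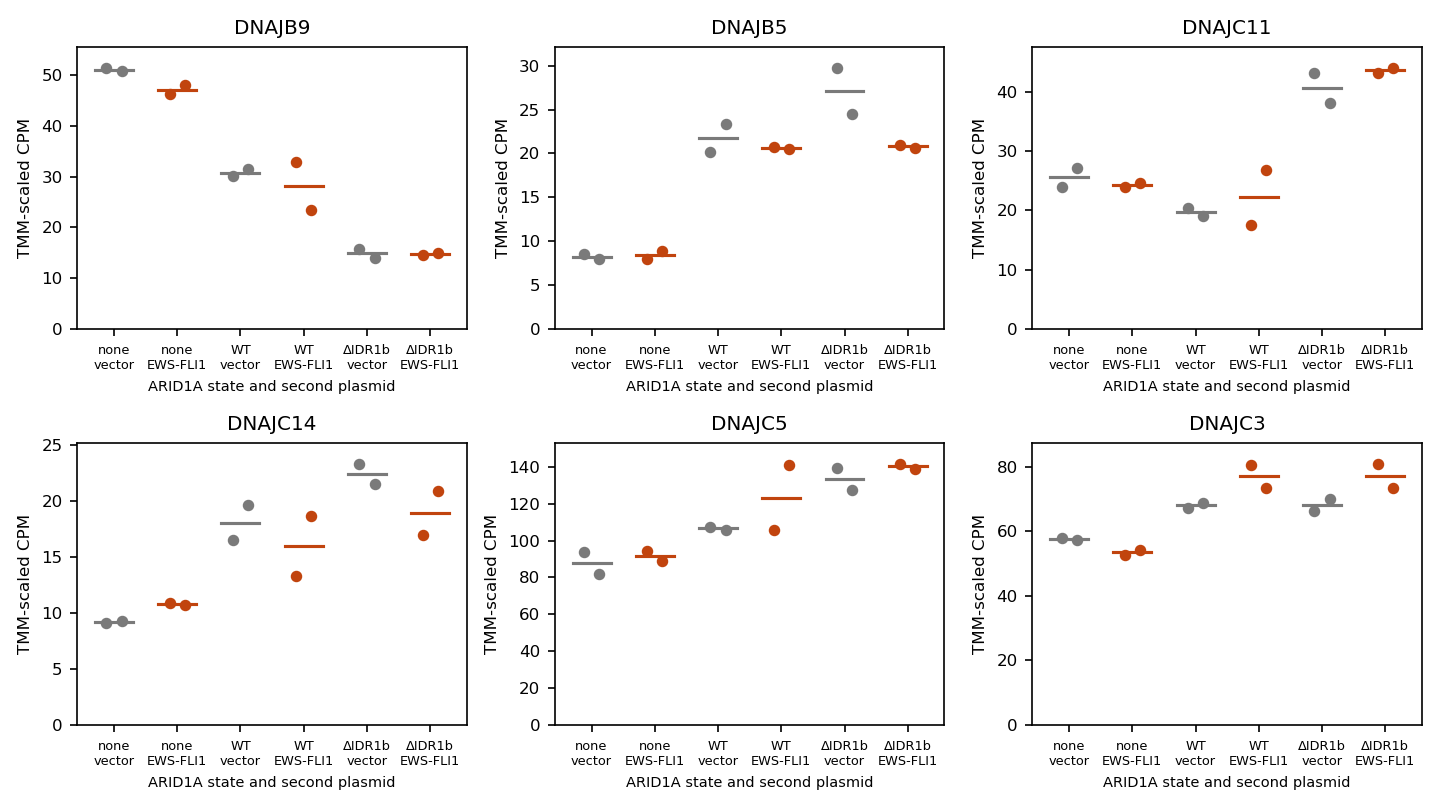
Levels of 6 members in TMM-scaled CPM (vertical axes, each from 0), 2 libraries a group (points) with their mean (line), grey for the empty vector, orange for EWS-FLI1, "none" for no ARID1A. DNAJB9 steps down from no ARID1A to WT to ΔIDR1b, DNAJB5 and DNAJC14 are lowest with no ARID1A, and DNAJC11 is highest in ΔIDR1b.

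ΔIDR1b against WT compared ARID1A without and with the IDR1b segment, and most of the called members were lower in ΔIDR1b. These states also differed in ARID1A level, and with EWS-FLI1 in FLI1 level, and the part of either was not tested. With vector alone 15 members passed, 4 higher and 11 lower (38.5%, against 24.5% of all genes; 5 and 9 with upper-quartile scaling). With EWS-FLI1 8 passed, 1 higher and 7 lower (20.5%, against 18.6%). Over all genes 2267 were called higher and 2728 lower with vector alone, and 1727 and 2058 with EWS-FLI1. With upper-quartile scaling this majority turned round, with 56.1% of all called genes higher with vector alone and 53.4% with EWS-FLI1. DNAJC11 was the member higher with both vectors, with log2 fold changes of 1.04 (SE 0.16, adjusted p = 1.07e-05) and 0.97 (SE 0.16, adjusted p = 4.13e-05); its WT libraries read 20.4 and 19.05 CPM with vector alone and 17.6 and 26.9 with EWS-FLI1. DNAJC11 in WT therefore lay below every ΔIDR1b library. DNAJC16 was higher with vector alone, by 0.90 (SE 0.19, adjusted p = 6.41e-04) on the log2 scale. DNAJC22 and DNAJC5 were higher there too (log2 fold changes 0.64 and 0.32), but the first call was lost without the second WT or the first ΔIDR1b library (0.119 and 0.123) and the second without any 1 of the 4 libraries compared (0.0719 to 0.254) or either library of no ARID1A with EWS-FLI1 (0.0533 and 0.0534).

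DNAJB9 was lower in ΔIDR1b than in WT, with log2 fold changes of -1.05 (SE 0.15, adjusted p = 7.00e-06) with vector alone and -0.93 (SE 0.16, adjusted p = 6.18e-05) with EWS-FLI1. DNAJC2, which sits on the ribosome and as ZRF1 also acts on chromatin, read 65.4 and 61.4 CPM in WT and 39.3 and 41.2 in ΔIDR1b with vector alone (log2 fold change of -0.66 with SE 0.12, adjusted p = 1.42e-04). With EWS-FLI1 DNAJC2 read 63.4 and 53.7 CPM in WT against 38.6 and 39.8 in ΔIDR1b (log2 fold change of -0.58 with SE 0.12, adjusted p = 9.48e-04). DNAJC7, whose tetratricopeptide repeats bind HSP70 and HSP90 alike, was lower with EWS-FLI1 at 98.5 and 106 CPM against 144 and 140.1 (log2 fold change of -0.48 with SE 0.10, adjusted p = 0.00123). Both genes stood apart without overlap.

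DNAJC25 was lower in ΔIDR1b with vector alone, at 16.4 and 13.7 CPM against 26.9 and 28.8 (log2 fold change of -0.89 with SE 0.17, adjusted p = 2.12e-04). With EWS-FLI1 its call, -0.59 (SE 0.17, adjusted p = 0.013), was lost in a fit of the 4 libraries compared alone (0.0812) and without the first WT library or the second of ΔIDR1b (0.159 and 0.162). DNAJC19 gave -0.72 (SE 0.16, adjusted p = 0.00136) with vector alone, and adjusted p = 0.0614 without the second ΔIDR1b library. DNAJB1 was lower with vector alone, with a log2 fold change of -0.68 (SE 0.11, adjusted p = 2.06e-05). With EWS-FLI1 its call, -0.37 (SE 0.12, adjusted p = 0.0228), was lost without the second WT library (0.0508), without the first of ΔIDR1b (0.255) and in a fit of the 4 libraries compared alone (0.148). The count of 8 fell to 5 without the first WT library or without either ΔIDR1b library, and to 4 in that smaller fit.

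How far the state effects repeated with the other vector was read from separate libraries. Between WT and no ARID1A, DNAJA1, DNAJB5, DNAJB9 and DNAJC14 were called in the same direction with both vectors, which is 66.7% of the empty-vector calls and 44.4% of the EWS-FLI1 calls (71.6% and 46.3% among all genes). Between ΔIDR1b and no ARID1A, 13 members were, 76.5% of either list (78.6% and 72.8% among all genes). Between ΔIDR1b and WT, DNAJA2, DNAJB1, DNAJB9, DNAJC2, DNAJC7, DNAJC11 and DNAJC25 were, 46.7% and 87.5% (55.5% and 73.2% among all genes).

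**Figure D5:**
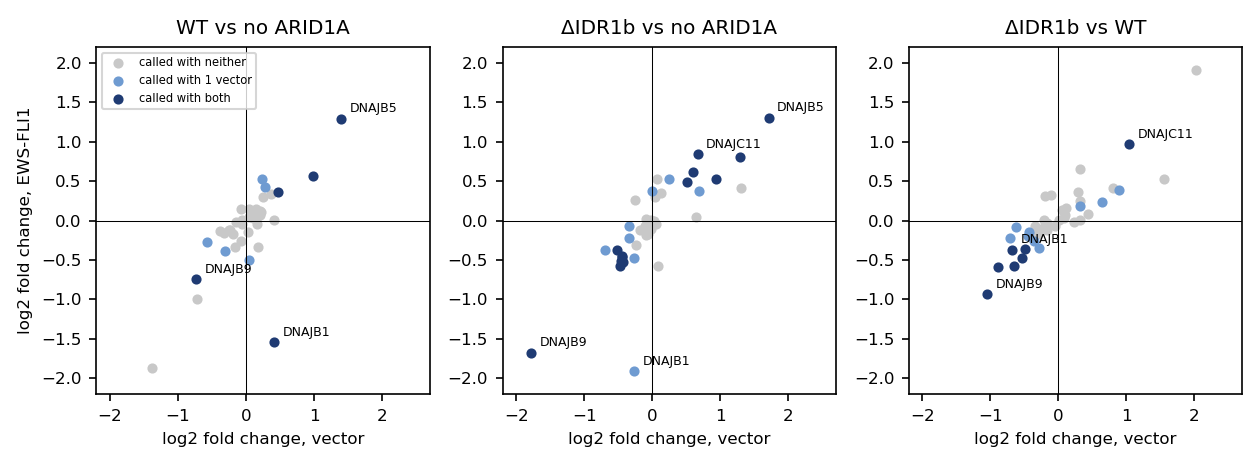
Log2 fold change between 2 ARID1A states with vector alone (horizontal axis) and with EWS-FLI1 (vertical axis) for the 39 tested members, 1 panel per pair of states, dark blue where called with both vectors, light blue with 1 and grey with neither. DNAJB1 lies at 0.41 and -1.54 in the left panel, below and right of the origin, while DNAJB9 lies in the lower left of all 3 panels.

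By place of work, the 8 members listed for the ER did not move as one. In ΔIDR1b against no ARID1A with vector alone 3 of the 8 fell (DNAJB9, DNAJC1 and DNAJC25) and none rose, which is 37.5% called and near the 33.3% of all genes. With EWS-FLI1 the same 3 fell and DNAJC3 rose (50% called, against 35.9%). DNAJC14, tied to the ER above but not in this list, rose in both comparisons, so these counts hold for the list only. DNAJB11, an ER-luminal helper of BiP, had -0.24 and -0.31 in these 2 comparisons, and was called only against WT with EWS-FLI1 (log2 fold change of -0.35 with SE 0.13, adjusted p = 0.0472). DNAJB12 and DNAJB14, ER-membrane members that take part in degradation of ER proteins, gave 0.13 and 0.02 with vector alone and were called in no comparison. DNAJC10, the ER disulfide reductase ERdj5, was called in none either (-0.09 and -0.10).

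The ER HSP70 that these members serve is BiP, encoded by HSPA5, which is named here after its values were seen. HSPA5 read 2089 and 2204 CPM with no ARID1A, 3092 and 2842 in WT and 622 and 722 in ΔIDR1b, all with vector alone. HSPA5 thus fell with DNAJB9 in ΔIDR1b (log2 fold change of -1.68 with SE 0.10, adjusted p = 2.52e-15), but it rose in WT (log2 fold change of 0.47 with SE 0.09, adjusted p = 9.06e-04), where DNAJB9 fell. Of 9 genes listed for the unfolded protein response, 7 were called in ΔIDR1b against no ARID1A with each vector, 2 higher and 5 lower (77.8%, against 33.3% of all genes with vector alone and 35.9% with EWS-FLI1). In WT against no ARID1A 3 of the 9 were higher and 0 lower with vector alone (33.3%, against 11.7%), and 2 were higher and 2 lower with EWS-FLI1 (44.4%, against 18.1%).

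Of the 4 tested mitochondrial members, DNAJC11 rose and DNAJC19 fell in ΔIDR1b with vector alone, as given above. DNAJA3, at 173 and 167 CPM with no ARID1A and 159 and 157 in ΔIDR1b, was called in none of the 12 comparisons. Neither was DNAJC30, a small mitochondrial member, whose libraries ran from 2.26 to 5.99 CPM. Of the 3 vesicle and endosome members, DNAJC5 alone was called; DNAJC6, the auxilin that uncoats clathrin vesicles, and DNAJC13, an endosomal protein, gave 0.04 and -0.09 in ΔIDR1b against no ARID1A with vector alone. In ΔIDR1b against WT, 5 of the 8 cytosolic members with broad clients fell with vector alone (62.5% called, against 24.5% of all genes) and 3 with EWS-FLI1 (37.5%, against 18.6%), and none rose. In the listed heat-shock program 8 of 11 fell with vector alone (72.7%) and 6 of 11 with EWS-FLI1 (54.5%), and none rose. The shares of all genes are those just given and count both directions. Against no ARID1A with vector alone, 4 of the 11 were higher and 0 lower in WT (36.4%, against 11.7%). In ΔIDR1b 2 were higher and 5 lower (63.6%, against 33.3%). The 8 cytosolic members there had 3 higher and 0 lower in WT (37.5%), and 2 higher and 3 lower in ΔIDR1b (62.5%).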

How the data were processed

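PolyA RNA of 12 libraries, 2 in each of 6 groups, was deposited as 1 table of counts per library. Per the file headers, the authors made these counts with featureCounts 2.0.1 on exons of GENCODE release 41 (GRCh38, patch 13), per gene name, from pairs with both ends aligned, without strand and without multi-mapping or multi-overlapping fragments. The submitters' processing notes also name STAR, SAMtools and edgeR; the versions are not given in the sources used here. Besides DNAJC14 and DNAJC9, other genes overlapped exon bases of DNAJC2 (21.1%), DNAJB11 and DNAJC30 (14.2% each), DNAJC4 (13.9%), DNAJC25 (13.7%) and DNAJC11 (11.6%), among others. No normalization had been applied. J-domain pseudogenes (28 names) held 39 to 80 counts a library, against 23481 to 31181 in the members.

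From the counts, filterByExpr of edgeR 4.0.16 (minimum count 10, minimum total 15, by group) kept 20377 genes, with 99.79 to 99.87% of the counts. Factors of the trimmed mean of M-values (TMM) ran from 0.932 to 1.08. All 12 libraries entered a quasi-likelihood model of 6 group means (6 residual degrees of freedom, common biological variation 10.1%; limma 3.58.1, R 4.3.3). Each of 12 contrasts had a 2-sided test, with Benjamini-Hochberg adjustment within the contrast and calls under 0.05. SE is the size of the log2 fold change divided by the square root of F. The procedure was tested on simulated data. Alternatives were DESeq2 1.42.0, other scaling factors, no filter, fits of only the libraries compared, replicate blocks and each library left out. Counting error is the only error that depth measures here, since amplified fragments are not independent molecules.

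The members and lists were chosen with earlier results of these data known. Named were every member called with EWS-FLI1 or in an interaction; for each pair of states up to 5 called members with the largest rise and 5 with the largest fall, at a mean of 1 CPM or more without overlap; the 3 highest per kilobase in each class; and the ER and mitochondrial members. Other members are named for counts and promoter matches. Protein sequences were not used here.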

Additional observations from a re-analysis of the deposited data

Results flagged for a closer look

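DNAJB1 was marked because the effect of EWS-FLI1 on it differed between ARID1A states by a test of the difference itself (edgeR's quasi-likelihood test, Benjamini-Hochberg adjustment). The log2 effect in WT minus that with no ARID1A was -1.95 (SE 0.16, adjusted p = 7.69e-10), and lay between -2.06 and -1.83 over the alternatives. In ΔIDR1b minus no ARID1A it was -1.64 (SE 0.16, adjusted p = 8.55e-08), with a range of -1.76 to -1.52. DNAJB1 was lower with EWS-FLI1 in both libraries of every ARID1A state. With no ARID1A it read 239.6 and 236 CPM with vector alone and 220.1 and 194 with EWS-FLI1. In each of these tests 2 of 11 tested genes in the HSP70 list were called lower as well. With EWS-FLI1, FLI1 read 1688 to 1830 CPM with no ARID1A, 1888 to 1906 in ΔIDR1b and 3462 to 3675 in WT; its part in the difference was not tested.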

How the results depend on the processing

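The alternatives were DESeq2, DESeq2 size factors and upper-quartile factors in edgeR, no low-count filter, fits of only the libraries compared, replicate blocks and each of the 12 libraries left out. The EWS-FLI1 calls and interactions of DNAJB1 held under all of them. Over the alternatives for the named calls and for the uncalled DNAJB1 estimates with no ARID1A and between ΔIDR1b and WT, 999 values kept direction and side of the threshold, 65 kept the direction but no longer passed, and none reversed.

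A group left with 1 library was assumed to vary like the others. Leaving out 1 library at a time, the number of members called with EWS-FLI1 was 0 with no ARID1A, 1 to 2 in WT and 1 in ΔIDR1b. For WT against no ARID1A it ran from 3 to 10 with the empty vector and 4 to 9 with EWS-FLI1. For ΔIDR1b against no ARID1A it ran from 11 to 18 and from 12 to 21, and for ΔIDR1b against WT from 10 to 17 and from 5 to 11. The interactions gave 1, 1 and 0 each time. With only the libraries compared, the EWS-FLI1 groups gave 4 called members for WT against no ARID1A and 4 for ΔIDR1b against WT, in fits with fewer samples.

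The replicate numbers were not taken to pair the libraries: deviations of same-numbered libraries correlated between groups of one vector with r from 0.0515 to 0.319 across 12940 genes with a mean of 50 counts or more, and from 0.0889 to 0.381 across 11384 genes at 100 counts or more. At 100 counts every such pair but 1 (no ARID1A and WT with vector alone, 0.0889) was above 0.1. Between vectors the correlations were mostly negative. With a replicate block the counts of members called were those of the main model, except 7 in place of 8 for ΔIDR1b against WT with EWS-FLI1. With a replicate block within each vector, 2 members were called with EWS-FLI1 in WT, DNAJB2 being added, 1 in ΔIDR1b and 0 with no ARID1A, while the calls over all genes rose from 45 to 260, 35 to 177 and 9 to 15. That block called 9 and 10 members for WT against no ARID1A with vector alone and EWS-FLI1, 18 and 21 for ΔIDR1b against no ARID1A, and 16 and 9 for ΔIDR1b against WT. Over all genes the vector-alone calls between WT and no ARID1A rose from 2381 to 3606.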
